A study of Homo sapiens with 12 samples.

Results

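Iron storage, uptake and export were followed through 10 genes, chosen by name: the ferritin chains FTL and FTH1, transferrin (TF), the transferrin receptors TFRC and TFR2, hepcidin (HAMP), ferroportin (SLC40A1), the transporter DMT1 (SLC11A2), ceruloplasmin (CP) and iron regulatory protein 2 (IREB2). They are 10 of the 60666 genes listed in each library, and all 10 passed the filter on low counts that 14274 genes passed. Huh7 is an established human hepatocellular carcinoma line, and Molidustat blocks the HIF prolyl hydroxylases, enzymes through which oxygen keeps HIF-α protein low. Each of the 4 groups had 3 libraries: Huh7 cells given 25 µM Molidustat, or its vehicle DMSO without drug, and collected 24 h or 48 h later. The paper calls the replicates biological, while the study's record speaks of triplicate RNA extractions, so p-values measure the spread between these libraries, which may be partly technical.

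Libraries were made from the 3′ end of polyadenylated RNA, and the gene counts of a library summed to 1499273 at the lowest and 9179389 at the highest. The unit of level is CPM, counts divided by a library size adjusted by its TMM factor and multiplied by a fixed constant. The CPM of a library therefore do not sum to a total shared by all libraries. Levels are given with the SD over 3 libraries, and changes as log2 fold changes with their standard errors (SE). CPM is not corrected for how well each transcript end is captured, so it is compared between samples, and a statement across genes is one of counts, not of transcript abundance. One library, DMSO 48 h replicate 2, stands apart and is also the smallest. Reads outside any annotated feature made up 50.4% there and 17.1 to 25.6% elsewhere. Its log2 CPM correlated with theirs at 0.707 to 0.782, while they correlated with each other at 0.855 to 0.956. The 48 h responses of the 10 genes rest on it and are given with and without it. Its TMM factor was 0.629, against 1.01 to 1.08 in the others, so its CPM are larger than its shares of all counts. It also bears on the 24 h tests, because the spread of a gene was estimated over all 12 libraries.

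In liver cells, transferrin carries iron in the blood and enters cells with its receptor, DMT1 moves iron out of endosomes, ferritin stores it, and ferroportin exports it. Ceruloplasmin oxidises the exported iron so that transferrin can bind it, and hepcidin, a liver hormone, causes ferroportin to be degraded. Iron regulatory proteins, IREB2 among them, bind a hairpin called the iron-responsive element when iron is scarce. Binding in a 5′UTR blocks translation and binding in the 3′UTR of TFRC protects the mRNA, so part of this control is not visible in mRNA counts. HIF is known to activate several iron genes, TF, TFRC and CP among others. Which of the 10 it controls in these cells was not tested.

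The hairpins were looked for as a bulged C, 5 bases, the loop CAGTGN and 5 bases able to pair with the first 5 (G–U pairs allowed), on the transcript's own strand, in the GENCODE 44 transcript chosen as representative. They are shown because the element is known from ferritin, ferroportin and TFRC mRNAs; no binding or effect of iron was measured here. Capitals mark the bulged C and the loop, and all positions are in GRCh38. FTL and FTH1 held one each in the 5′UTR, on chr19:48965335-48965364 (plus strand) and chr11:61967573-61967602 (minus strand), and SLC40A1 held one in its 5′UTR on chr2:189580660-189580689 (minus strand).

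FTL 5′UTR: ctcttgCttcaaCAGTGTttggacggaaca

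FTH1 5′UTR: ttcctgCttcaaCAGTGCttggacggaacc

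SLC40A1 5′UTR: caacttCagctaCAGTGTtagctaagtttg

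TFRC held 4 in its 3′UTR on the minus strand of chromosome 3, of which 2 are shown, on chr3:196050978-196051007 and chr3:196050462-196050491. TF held 1 match, on chr3:133792673-133792702 (plus strand), far along the 18021-base 3′UTR of its representative transcript. Whether TF mRNA in these cells extends that far was not tested.

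TFRC 3′UTR, the first: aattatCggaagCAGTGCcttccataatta

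TFRC 3′UTR, the fourth: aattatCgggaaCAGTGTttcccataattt

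TF 3′UTR: tgaatgCattttCAGTGAaagattataaca

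The same search found a match in the 5′UTR of 19 of 19441 genes (0.0977%) and in the 3′UTR of 122 of 19550 genes (0.624%). No match was found in the UTRs of TFR2, HAMP, SLC11A2, CP and IREB2 in the transcripts searched. This says only that these letters are not there. The search misses an element in another transcript of the gene or with unpaired bases in the stem, so it does not show that these genes lack one.

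HIF binds DNA at sites with the core ACGTG. In windows from 250 bases before to 50 bases after the gene start (RefSeq, GRCh38.p14), 12 windows were held for 7 of the 10 genes, FTL, TF, TFRC, HAMP, SLC40A1, SLC11A2 and IREB2. ACGTG on either strand was found in 3 of the 12, against 7518 of all 35116 windows (21.4%). The matches of TFRC (chr3:196082164-196082188, minus strand) and FTL (chr19:48965288-48965312, plus strand), with the core in capitals, began 88 and 11 bases before the gene start.

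TFRC promoter: tcgcgagcgtACGTGcctcaggaag

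FTL promoter: ccgccctagcCACGTcccctcgcag

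The FTL match reads ACGTG on the opposite strand. The match of TF lay at the upstream of its 2 RefSeq starts, whose window did not hold the start of the representative transcript. These are matches of letters only, and no binding was measured here.

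Whether Molidustat changed these transcripts was asked at 24 h and at 48 h, with edgeR's quasi-likelihood test fitted to all 12 libraries and a call at a Benjamini-Hochberg adjusted p under 0.05 with a log2 fold change beyond 1. No gene of the 10 was called at either time, while 33 of all 14274 genes tested (0.231%) were called higher and 0 (0%) lower at 24 h, and 30 (0.21%) higher and 3 (0.021%) lower at 48 h. At an unadjusted p under 0.05 stood 3 of the 10 at 24 h (TF, TFRC and CP), against 5.25% of all genes, and 2 at 48 h (TF and TFRC), against 13.3%. The 10 genes were chosen with earlier results of these data known, so their shares and medians here are a description, not independent support. DESeq2 called 0 of the 10 at 24 h and 1 at 48 h (TF), against 0.433% and 0.605% of all genes called higher. Limma-voom with sample quality weights called 1 (TF) and 2 (TF and CP), against 0.448% and 1.71%, and edgeR with no filter on low counts called 1 (CP) and 1 (TF), against 0.366% and 0.542%. Without DMSO 48 h replicate 2, edgeR called TF and CP higher at 24 h and TF at 48 h, where 0.728% and 0.315% of the 15253 genes tested were called higher, and DESeq2 without it called both genes at both times (0.745% and 0.535% of all). The log2 fold change was above 0 for 8 of the 10 genes at 24 h (median 0.15, against 0.02 over all genes tested) and for 10 of 10 at 48 h (median 0.74, against 0.01). Without DMSO 48 h replicate 2 the median at 48 h was 0.55, and FTL was below 0.

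**Figure D1:**
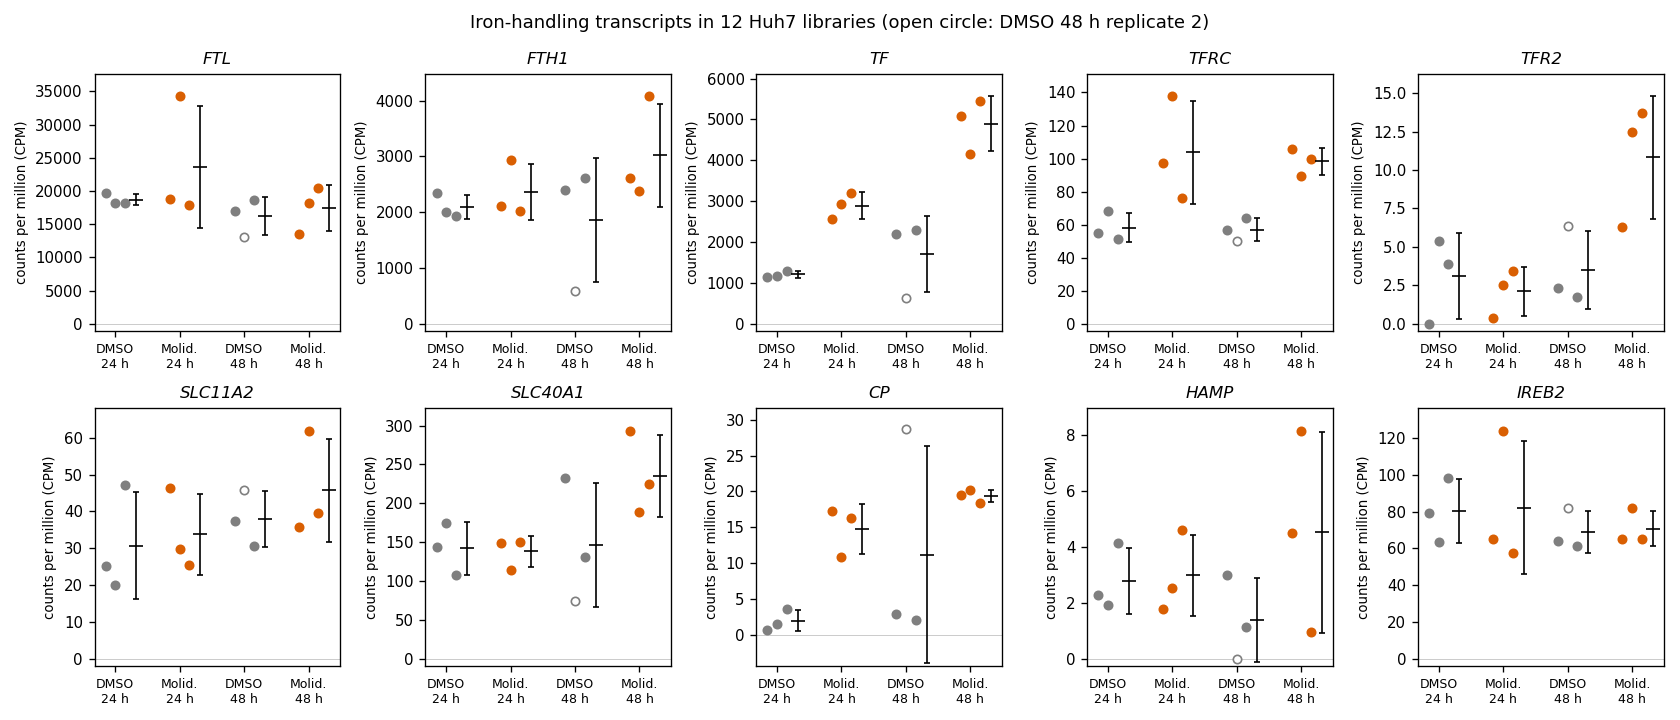
CPM of each of the 10 genes (vertical axis, linear) in the 4 groups; points are libraries, bars the mean and SD of 3 libraries, and the open circle is DMSO 48 h replicate 2. The Molidustat points of TF and TFRC lie above all DMSO points of the same time, and CP does so at 24 h; at 48 h the open circle, at 28.7 CPM, lies above them under TMM scaling and would lie below them scaled to total counts.

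**Figure D2:**
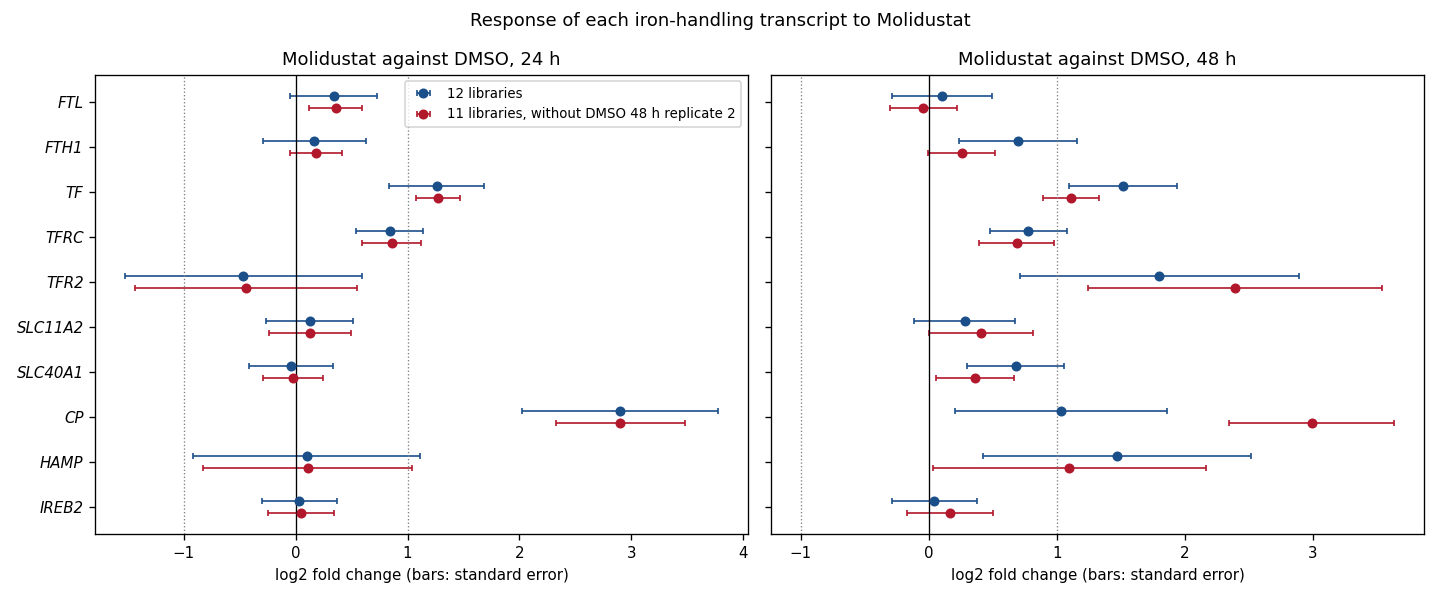
Log2 fold change of Molidustat against DMSO (horizontal axis) with its standard error for the 10 genes at 24 h and 48 h, fitted to 12 libraries or without DMSO 48 h replicate 2; dotted lines mark a log2 fold change of 1 either way. TF stays above 1 in all 4 fits, and CP at 48 h moves from 1.03 to 2.99.

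The storage genes did not separate by treatment. FTL (ENSG00000087086), the ferritin light chain, took more counts than any other gene in 11 libraries, 1.42 to 3.44% of all, and ranked at 13 in DMSO 48 h replicate 2 with 0.818% (95% exact Clopper-Pearson interval 0.804 to 0.833%, counting error only). At 24 h FTL measured 19672, 18150.3 and 18248 CPM with DMSO and 18778, 34261 and 17947 CPM with Molidustat. Molidustat replicate 2 was the highest of all, and the other Molidustat libraries lay within or just below the DMSO range. The 48 h values were 16942, 13058 and 18708 CPM with DMSO and 13591, 18262 and 20457 CPM with Molidustat, and the groups overlapped. The log2 fold changes were 0.34 (SE 0.39, adjusted p = 0.999 by edgeR) and 0.10 (SE 0.39, adjusted p = 0.947). Without Molidustat 24 h replicate 2 the first was -0.03.

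FTH1 (ENSG00000167996), the heavy chain, which holds the ferroxidase site, measured 2343, 2011 and 1936 CPM with DMSO and 2111, 2935 and 2022 CPM with Molidustat at 24 h. After 48 h FTH1 was at 2398, 582 and 2609 CPM with DMSO and 2607, 2377 and 4076 CPM with Molidustat. Groups overlapped at both times, and the low value of 582 CPM was DMSO 48 h replicate 2. Its log2 fold changes were 0.17 (SE 0.46, adjusted p = 0.999 by edgeR) and 0.70 (SE 0.46, adjusted p = 0.574), and the second was 0.26 (SE 0.26) without that library.

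Within a library, FTL had 5.02 to 11.7 times the counts of FTH1 in 11 libraries and 22.4 times in DMSO 48 h replicate 2. At 48 h the ratio of counts was 5.21, 7.68 and 5.02 with Molidustat and 7.07, 22.4 and 7.17 with DMSO. Molidustat replicate 2 lay above the lowest DMSO library, so the groups overlapped. Ferritin genes have many processed copies in the genome, whose reads can be hard to tell from those of the parent. The 16 annotated copies of FTL took 3.37 to 4.72% of the counts of gene and copies together, most of them on FTLP3, and the 25 copies of FTH1 took 6.42 to 8.78%, with FTH1P8 first. Adding the copies to their parents changed no call.

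**Figure D3:**
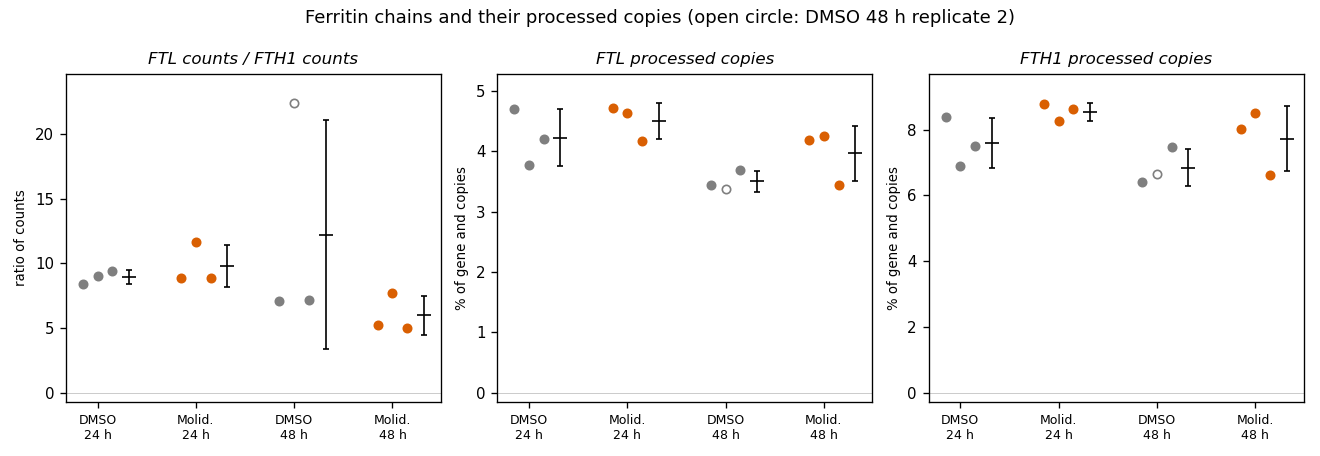
Left, FTL counts divided by FTH1 counts in each library; centre and right, the percentage of the counts of FTL or FTH1 and their processed copies that fell on the copies. Bars are the mean and SD of 3 libraries, and the open circle, DMSO 48 h replicate 2, stands at 22.4 in the left panel but among the other libraries in the panels of copies.

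Of the uptake genes, TF and TFRC separated by treatment, and TFR2 and SLC11A2 overlapped. TF (ENSG00000091513), the plasma iron carrier that hepatocytes secrete, measured 1139.6, 1183 and 1303 CPM with DMSO and 2555, 2938 and 3189.7 CPM with Molidustat at 24 h. The 48 h libraries held 2195, 636 and 2297 CPM with DMSO and 5095, 4149 and 5442 CPM with Molidustat. At each time the lowest Molidustat library exceeded the highest DMSO library, as for 7.26% of all genes at 24 h and 9.96% at 48 h, and DMSO 48 h replicate 2 was the lowest of the 12. The means were 1209 ± 84.9 and 2894 ± 319.7 CPM (SD, n = 3 each) at 24 h, and 1709 ± 931 and 4895 ± 669 CPM at 48 h. The log2 fold changes were 1.26 (SE 0.42, adjusted p = 0.561 by edgeR), 2.39-fold, and 1.52 (SE 0.42, adjusted p = 0.193), 2.86-fold. TF was called at both times without DMSO 48 h replicate 2, with log2 fold changes of 1.27 (SE 0.19, adjusted p = 0.00163) and 1.11 (SE 0.22, adjusted p = 0.0351). At 24 h the fold hardly moved, while the standard error went from 0.42 to 0.19. The summed level of 10 hepatocyte markers was likewise higher in all Molidustat libraries at each time, by little at 24 h (17919 CPM in the lowest Molidustat library, 17842 CPM in the highest DMSO library), and its part in the TF result was not tested.

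The order of the TF group means was DMSO 24 h, DMSO 48 h, Molidustat 24 h and Molidustat 48 h. The DMSO groups overlapped through replicate 2 at 48 h (log2 fold change 0.50 for 48 h against 24 h, SE 0.42, adjusted p = 0.821 by edgeR). The Molidustat groups did not overlap, but the test of 48 h against 24 h was not passed (0.76, SE 0.42, adjusted p = 0.9998). Nor did the response differ between the times by the interaction test (0.26, SE 0.59, adjusted p = 0.959), and this difference was -0.16 (SE 0.29) without DMSO 48 h replicate 2. The step from DMSO 24 h to 48 h was then 0.92 (SE 0.21, adjusted p = 0.479).

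The locus of TF on chromosome 3 (133746040 to 133796641, plus strand) holds other genes on the same strand, and the strand setting of the counting was not stated. SRPRB (133784023 to 133825772), a subunit of the signal recognition particle receptor, shares 122 exon bases with TF. It measured 232 to 569 CPM in 11 libraries and 3063 CPM in DMSO 48 h replicate 2, where TF was lowest. Its Molidustat libraries lay below all DMSO libraries at both times, a pattern whose share over all genes was not counted. The log2 fold changes were -0.26 (SE 0.58) and -2.30 (SE 0.61, adjusted p = 0.184 by edgeR), the second -0.66 (SE 0.24) without that library, and DESeq2 called it lower at 48 h (-2.39, adjusted p = 0.00769). The processed pseudogene ACSL3P1 (133760300 to 133762363) lies in an intron of TF, and it was picked out here after its values were seen. It measured 3.90, 0 and 4.54 CPM with DMSO and 54.5, 63.6 and 77.5 CPM with Molidustat at 24 h. Its 48 h values were 13.01, 5.32 and 11.7 CPM with DMSO and 75.5, 49.8 and 65.8 CPM with Molidustat. The groups did not overlap at either time. ACSL3P1 was called higher at 24 h (log2 fold change 4.42, SE 0.62, adjusted p = 0.00298 by edgeR) and not at 48 h (2.58, SE 0.56, adjusted p = 0.0913). At 48 h edgeR without DMSO 48 h replicate 2 gave 2.35 (adjusted p = 0.0616), while DESeq2 (2.59, adjusted p = 3.36e-05) and limma-voom (2.41, adjusted p = 9.73e-05) called it. Its parent gene ACSL3 measured 234 to 366 CPM over the 12 libraries with a log2 fold change of 0.19 (SE 0.30, adjusted p = 0.843) at 48 h. Whether reads on ACSL3P1 come from TF pre-mRNA, the pseudogene or its parent was not tested.

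**Figure D4:**
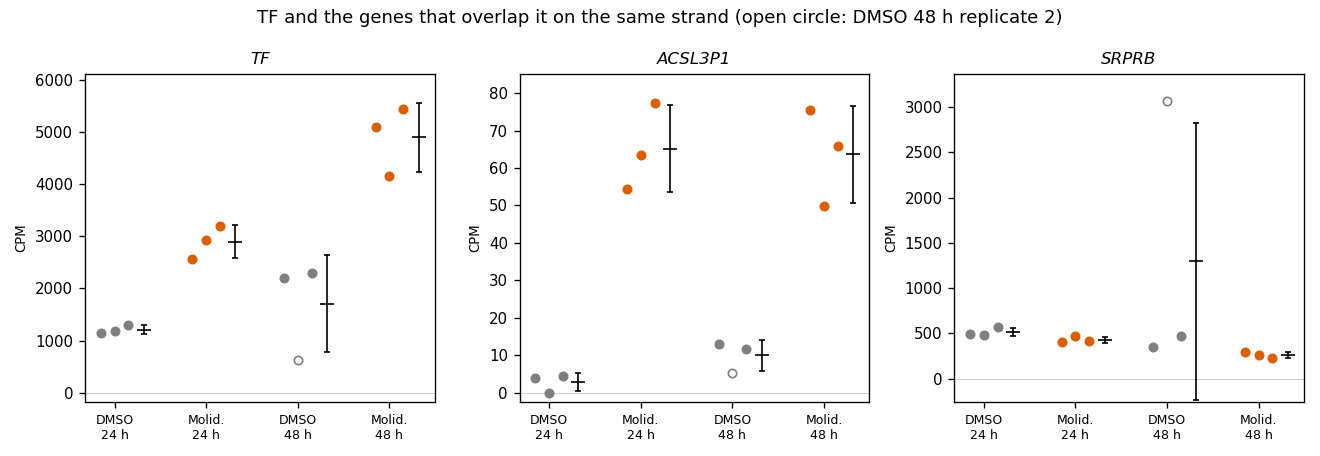
CPM of TF and of ACSL3P1 and SRPRB, which overlap it on the same strand, by group (linear axes; bars, mean and SD of 3 libraries). Open circles mark DMSO 48 h replicate 2, the lowest point for TF and, at 3063 CPM, the highest for SRPRB; all Molidustat points of ACSL3P1 lie at 49.8 CPM or above and all DMSO points at 13.01 CPM or below.

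TFRC (ENSG00000072274), the receptor that brings transferrin into cells, measured 54.9, 68.2 and 51.4 CPM with DMSO and 97.5, 138 and 76.3 CPM with Molidustat at 24 h. After 48 h TFRC was at 57.1, 50.04 and 64.1 CPM with DMSO and 106, 89.2 and 99.97 CPM with Molidustat. The groups did not overlap at either time, and DMSO 48 h replicate 2 was the lowest of all 12 libraries. Scaled to total counts it was lower still, at 31.3 against 61.4 and 67.5 in its group, and the groups did not overlap on that scale either. The means were 58.2 ± 8.84 and 104 ± 31.1 CPM at 24 h, and 57.1 ± 7.01 and 98.3 ± 8.32 CPM at 48 h (SD, n = 3 each). This gave log2 fold changes of 0.84 (SE 0.30, adjusted p = 0.658 by edgeR), 1.79-fold, and 0.78 (SE 0.30, adjusted p = 0.267), 1.71-fold, below the fold threshold at both times. Leaving out DMSO 48 h replicate 2 gave 0.86 (adjusted p = 0.217) and 0.68 (adjusted p = 0.665). Time made little difference to the means, with log2 fold changes for 48 h against 24 h of -0.02 (SE 0.30) in DMSO and -0.08 (SE 0.29) in Molidustat.

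TFR2 (ENSG00000106327), the second receptor, which takes part in iron sensing by hepatocytes, was near the limit of detection with 0 to 73 counts per library. It measured 0, 5.39 and 3.92 CPM with DMSO and 0.359, 2.55 and 3.46 CPM with Molidustat at 24 h. The 0 of DMSO 24 h replicate 1 allows up to 3 counts, or 0.689 CPM. At 48 h it measured 2.30, 6.39 and 1.76 CPM with DMSO and 6.29, 12.4 and 13.7 CPM with Molidustat. The groups overlapped at both times, at 48 h only through DMSO replicate 2, whose 6.39 CPM are 6 counts. Scaled to total counts, that library was at 4.002 and the lowest Molidustat library at 6.59, without overlap. Its log2 fold changes were -0.47 (SE 1.06, adjusted p = 0.999 by edgeR) and 1.80 (SE 1.09, adjusted p = 0.519), 3.48-fold, and the second was 2.39 (SE 1.15, adjusted p = 0.761), 5.24-fold, without that library. Within Molidustat, all 48 h libraries lay above all 24 h libraries (log2 fold change 2.28, SE 1.07, unadjusted p = 0.0484, adjusted p = 0.9998 by edgeR), as did those of TF, SLC40A1 and CP, against 7.15% of all genes.

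SLC11A2 (ENSG00000110911), which encodes DMT1, measured between 20.03 and 61.8 CPM over the 12 libraries, and Molidustat and DMSO overlapped at both times. The means were 30.7 ± 14.4 and 33.8 ± 10.99 CPM at 24 h, and 37.9 ± 7.56 and 45.7 ± 14.04 CPM at 48 h (SD, n = 3 each). The log2 fold changes were 0.13 and 0.28 (SE 0.39 each), the second 0.41 (SE 0.41) without DMSO 48 h replicate 2.

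Of the export genes, ferroportin overlapped and ceruloplasmin did not at 24 h. SLC40A1 (ENSG00000138449), the ferroportin gene, measured 144, 174 and 107 CPM with DMSO and 149, 114 and 150.0 CPM with Molidustat at 24 h. The 48 h values were 232, 74.5 and 131 CPM with DMSO and 293, 189 and 225 CPM with Molidustat. Groups overlapped at both times, with DMSO 48 h replicate 2 the lowest. Its log2 fold changes were -0.04 (SE 0.38, adjusted p = 0.999 by edgeR) and 0.68 (SE 0.38, adjusted p = 0.477), and the second was 0.36 (SE 0.30) without that library.

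CP (ENSG00000047457), the ferroxidase that hepatocytes secrete, measured 0.689, 1.54 and 3.51 CPM with DMSO and 17.2, 10.8 and 16.3 CPM with Molidustat at 24 h. These are 3, 4 and 17 counts against 48, 89 and 85, so the DMSO level rests on few reads. The 48 h libraries held 2.85, 28.7 and 1.96 CPM with DMSO and 19.5, 20.2 and 18.4 CPM with Molidustat. The groups were apart at 24 h and overlapped at 48 h, because DMSO replicate 2, with 27 counts, was the highest of all 12 libraries after TMM scaling. Scaled to total counts, it was at 18.01 and the Molidustat 48 h libraries at 20.5, 20.3 and 19.1, so the 48 h groups did not overlap on that scale (log2 fold change 1.52, SE 0.73, adjusted p = 0.510 by edgeR). This gave log2 fold changes of 2.90 (SE 0.88, adjusted p = 0.387 by edgeR), 7.45-fold, and 1.03 (SE 0.83, adjusted p = 0.660). Without DMSO 48 h replicate 2, CP was called at 24 h (2.90, SE 0.57, adjusted p = 0.0187) and missed the threshold at 48 h (2.99, SE 0.64, adjusted p = 0.0564). The 24 h value was 3.75 without DMSO 24 h replicate 3, and the 48 h value 0.47 without DMSO 48 h replicate 3. The gene overlaps HPS3 on the opposite strand, which took 1168 counts against 545 on CP over all libraries. At 24 h HPS3 measured 19.5, 15.02 and 10.9 CPM with DMSO and 17.6, 10.6 and 36.3 CPM with Molidustat, so its groups overlapped where those of CP were apart (log2 fold change 0.50, SE 0.51). It measured 7.45 CPM in DMSO 48 h replicate 2, its lowest value, and 33.9, 48.5 and 19.4 CPM in the Molidustat 48 h libraries, where CP was also high. Its log2 fold change at 48 h was 1.25 (SE 0.52, adjusted p = 0.308 by edgeR), and the part of its reads in the CP counts was not tested.

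Of the control genes, neither differed beyond its spread. HAMP (ENSG00000105697) measured 2.30, 1.93 and 4.13 CPM with DMSO and 1.79, 2.55 and 4.61 CPM with Molidustat at 24 h. After 48 h HAMP was at 2.98, 0 and 1.14 CPM with DMSO and 4.49, 8.15 and 0.940 CPM with Molidustat. Counts were 0 to 24 per library, the groups overlapped at both times, and the 0 of DMSO 48 h replicate 2 allows up to 3.19 CPM. The log2 fold changes, 0.10 (SE 1.02) and 1.47 (SE 1.05), were not distinguishable from 0 at this depth. The second was 1.10 (SE 1.07) without DMSO 48 h replicate 2, 2.44 without DMSO 48 h replicate 1 and 0.75 without Molidustat 48 h replicate 2. IREB2 (ENSG00000136381), the iron regulatory protein degraded when iron is plentiful, measured 57.3 to 124 CPM over the 12 libraries. Its log2 fold changes were 0.03 (SE 0.33) and 0.04 (SE 0.34), the second 0.16 (SE 0.33) without DMSO 48 h replicate 2, and the groups overlapped.

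No gene of the 10 differed between the 24 h and 48 h responses by edgeR's interaction test (0 at an unadjusted p under 0.05, against 6.78% of all genes, and 0 called by DESeq2 and by limma-voom). For 48 h against 24 h, edgeR, DESeq2 and limma-voom called 0 of the 10 in DMSO and in Molidustat, where edgeR called 1 (0.00701%) and 0 (0%) of all genes. Of 28430 genes, DESeq2 called 30 higher and 8 lower in DMSO, 7 and 5 in Molidustat, and 1 and 3 for the interaction. Limma-voom called 0 higher and 2 lower of 14274 genes in DMSO, 0 and 1 in Molidustat, and 0 and 0 for the interaction. At an unadjusted p under 0.05 by edgeR stood CP in DMSO (log2 fold change 2.26, SE 0.91), against 8.14% of all genes, and TFR2 in Molidustat, against 4.58%. Without DMSO 48 h replicate 2 the value of CP was 0.31 (SE 0.63). A 3 against 3 permutation of libraries cannot give a two-sided p below 0.1, so no such test was run for single genes.

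The wider iron machinery was followed in 83 further genes in 8 lists, of which 74 could be tested. None was called by edgeR in any comparison, and 1 and 15 stood at an unadjusted p under 0.05 at 24 h and 48 h (1.35% and 20.3%, against 5.25% and 13.3% of all genes). DESeq2 called none at either time, and limma-voom called SLC46A1 higher and HP lower at 48 h (1.67, adjusted p = 0.0370, and -1.94, adjusted p = 0.00908), where it called 1.71% of all genes higher and 0.238% lower. The median log2 fold change was 0.12 at 24 h and 0.06 at 48 h, and 0.13 and -0.04 over 75 genes without DMSO 48 h replicate 2. In the list of uptake and reduction, 6 of 11 genes were above 0 at 24 h and 4 of 11 at 48 h. SLC46A1, a heme and folate carrier, measured 8.68, 10.6 and 7.65 CPM with DMSO and 14.6, 14.6 and 43.4 CPM with Molidustat at 48 h, so the groups did not overlap (log2 fold change 1.47, SE 0.51, adjusted p = 0.233 by edgeR, and 1.56, SE 0.54, without DMSO 48 h replicate 2). HP, haptoglobin, which binds free hemoglobin in plasma, measured 28.5, 7.45 and 35.7 CPM with DMSO and 6.52, 4.29 and 11.3 CPM with Molidustat at 48 h. The groups overlapped only through DMSO replicate 2. Its log2 fold change was -1.72 (SE 0.54, adjusted p = 0.208 by edgeR), and -2.10 (SE 0.46, adjusted p = 0.0623) without that library.

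In the list of hepcidin control, 15 of 19 genes were above 0 at 24 h and 11 of 19 at 48 h. SMAD6, an inhibitor of BMP signalling, measured 27.4, 39.4 and 23.9 CPM with DMSO and 22.2, 9.01 and 12.97 CPM with Molidustat at 48 h. Its Molidustat libraries lay below the DMSO libraries at both times, a pattern whose share over all genes was not counted. The log2 fold changes of SMAD6 were -0.66 (SE 0.39) and -0.99 (SE 0.41, adjusted p = 0.304 by edgeR), the second -0.79 (SE 0.40) without DMSO 48 h replicate 2. ACVR2A, an activin receptor, measured 410 CPM in DMSO 48 h replicate 2 and 19.1 to 84.9 CPM in the others. Of the transcripts known to carry an iron-responsive element, EPAS1, which encodes HIF-2α, measured 919 CPM in that library and 129 to 452 CPM in the others, and CDC42BPA 449 CPM against 66.0 to 140 CPM. In the list of ferritin turnover and iron chaperones, PCBP2, which delivers iron to ferritin, measured 2834 CPM there and 338 to 831 CPM elsewhere. Their log2 fold changes at 48 h, between -1.62 and -1.09, were between -0.25 and -0.17 without it. Also in that list, NCOA4, which brings ferritin to the lysosome, had log2 fold changes of 0.44 (SE 0.34) and 0.22 (SE 0.34), the second -0.04 (SE 0.31) without that library.

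Among genes for iron regulatory proteins and their turnover, CUL1, a ubiquitin ligase scaffold, measured 38.6, 41.2 and 34.5 CPM with DMSO and 82.1, 53.8 and 48.5 CPM with Molidustat at 24 h, without overlap (log2 fold change 0.69, SE 0.33, adjusted p = 0.955 by edgeR). At 48 h its groups overlapped (0.08, SE 0.33). FBXL5, the iron-sensing subunit that directs IREB2 to degradation, had log2 fold changes of -0.20 (SE 0.30) and 0.44 (SE 0.30), the second 0.24 (SE 0.28) without DMSO 48 h replicate 2. In heme synthesis and breakdown, 5 of 12 genes were above 0 at 24 h and 7 of 12 at 48 h. CPOX, an enzyme of heme synthesis, had log2 fold changes of 1.12 (SE 0.63, adjusted p = 0.999 by edgeR) and -0.03 (SE 0.62), the second -0.51 (SE 0.44) without that library. Among mitochondrial genes, 7 of 19 and 11 of 19 were above 0, and 7 of 19 at 48 h without DMSO 48 h replicate 2 (median then -0.06). SLC25A37, an iron importer, and LYRM4, which takes part in iron-sulfur cluster assembly, measured 217 and 281 CPM in DMSO 48 h replicate 2 against at most 41.4 and 105 CPM in the others. Of the heme exporters, FLVCR1 had log2 fold changes of 0.48 (SE 0.41) and -0.72 (SE 0.41), and ABCG2 of 0.30 (SE 0.72) and 0.57 (SE 0.73). The 48 h values were -0.29 (SE 0.37) and 0.78 (SE 0.78) without that library.

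As a check of the treatment, 7 of 8 listed HIF target genes could be tested and all 7 were above 0, with medians of 2.48 and 1.86 (2.51 and 1.99 over 8 genes without DMSO 48 h replicate 2). BNIP3, LDHA and PGK1 were called higher at 24 h and BNIP3 and PGK1 at 48 h. This list, like all others, was chosen with earlier results of these data known, so it is no independent support. As a check of the cells, all 10 hepatocyte markers were counted in every library, with AFP taking the most counts. Their summed level was 13642, 14486 and 17842 CPM with DMSO and 18659, 17919 and 24254 CPM with Molidustat at 24 h. The 48 h sums were 17030.0, 7924 and 17364 CPM with DMSO and 23755, 26642 and 26993 CPM with Molidustat. These sums, like TF, were higher in all Molidustat libraries, and lowest in DMSO 48 h replicate 2. Of the 10 markers, edgeR on 12 libraries called none, 2 and 6 stood at an unadjusted p under 0.05 (5.25% and 13.3% over all genes), and the median log2 fold changes were 0.45 and 1.09. Like TF, SERPINA1 was called by edgeR at both times without DMSO 48 h replicate 2 (log2 fold changes 1.16, adjusted p = 0.0149, and 1.23, adjusted p = 0.0474), and the list medians were then 0.46 and 0.69. DESeq2 called SERPINA1 at both times and APOA1 and AHSG at 48 h, and limma-voom called these 3 at 48 h. APOB had a log2 fold change of 0.05 (SE 0.33) at 24 h and was the marker below 0 at 48 h, at -0.46 (SE 0.33) and, without DMSO 48 h replicate 2, -0.67 (SE 0.25, adjusted p = 0.529 by edgeR). More RNA per cell and a larger share of producing cells cannot be told apart in bulk RNA. Of 10 erythroid markers, 8 had no count in any library and the list summed to at most 0.577 CPM. Of 10 macrophage and other immune markers, 6 had no count (CD163, CSF1R and MARCO among them), and LYZ took the most counts in a sum of 53.2 to 234 CPM. At 48 h, 1 of the 3 immune markers that could be tested stood at an unadjusted p under 0.05 by edgeR, against 13.3% of all genes. None was called (smallest adjusted p = 0.175 by edgeR). Of these markers, 1 had all Molidustat libraries above DMSO, as for 9.96% of all genes. LYZ had all below, a pattern whose share over all genes was not counted. It measured 101, 131 and 137 CPM with DMSO and 47.9, 42.9 and 72.2 CPM with Molidustat. Fibroblast and stellate markers summed to 8.06 to 48.3 CPM, with RGS5 taking the most counts in 11 libraries. At 48 h their sums were 19.5, 12.8 and 18.3 CPM with DMSO and 48.3, 20.2 and 22.2 CPM with Molidustat, and the 5 that could be tested were all above 0 (median log2 fold change 0.93, none called or at an unadjusted p under 0.05 by edgeR). Their part in the 48 h values was not tested. Endothelial markers summed to at most 6.45 CPM, with no count at all in 3 libraries and PECAM1 first by counts in 6.

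The genes most like each of the 10 over the 12 libraries, by Pearson's r of log2 CPM among all genes tested, are a description; libraries share depth and treatment, so no p is given. FTL was most like its copy FTLP3 (r = 0.924) and then BTF3 and SPCS1, and FTH1 most like its copy FTH1P8 (0.993), then RPLP0 and MED18. TF was most like DDIT4 (0.971), SERPING1 (0.968) and SERPINA1 (0.957), the last a hepatocyte marker used above. TFRC was most like GAPDHP1 (0.972), ALKBH5 (0.958) and GAPDHP40 (0.957), and CP most like TMCC1 (0.955), FUT11 (0.943) and C4orf3 (0.936). The others were most like TBC1D10A (SLC40A1, 0.932), TXNRD2 (SLC11A2, 0.904), COX20P2 (HAMP, 0.903), HLA-E (TFR2, 0.901) and GNA11 (IREB2, 0.855). Without DMSO 48 h replicate 2, FTH1P8 and GAPDHP1 ranked at 1 again, and the order of most others changed. DDIT4, SERPING1 and SERPINA1 then ranked at 4, 5 and 6 for TF, FTLP3 at 7 for FTL, RPLP0 at 17 for FTH1 and TMCC1 at 12 for CP. TBC1D10A, TXNRD2 and HLA-E ranked at 2, GNA11 at 5 and COX20P2 at 10 (r = 0.812). Among the 10 themselves, TF and TFRC had the highest r over 12 libraries (0.771, and 0.727 without DMSO 48 h replicate 2). TF and CP had r = 0.429 over 12 libraries and 0.872, the highest, without it. TF also had r = 0.758 with FTH1 and 0.716 with SLC40A1 (0.622 and 0.551 without that library). The lowest over 12 libraries was -0.513 (SLC40A1 and IREB2).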

How the data were processed

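RNA of the 12 Huh7 cultures was converted to 3′ libraries (QIAseq UPX 3′ kit) and sequenced. Per the labels, the authors used bcl2fastq 2.17.1.14, cutadapt 1.9.1, STAR 2.7.9a on GRCh38 and HTSeq 0.11.2, and deposited whole-number counts per gene, not normalized. The annotation release, strand setting and use of molecular identifiers are not given in the sources used here, so PCR copies may be among the counts, and intervals cover counting error only. Summary lines (5 per library) were kept out (reads on no feature, 17.1 to 25.6%, and 50.4% in DMSO 48 h replicate 2), all columns were used (0 left out), and 28430 genes had a count.

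The 10 genes and all lists were chosen with earlier results of these data known. Named beside the 10 are, from each further list, genes called in any comparison and the 2 with the smallest p under Molidustat, and for each of the 10 the 3 most alike genes. Names and coordinates came from GENCODE 44 (60437 of 60666 matched), sequences from its transcripts and from RefSeq (GRCh38.p14). Tests of the counts used edgeR 4.0.16 under R 4.3.3 (filterByExpr, minimum count 10, minimum total 15; TMM; 1 quasi-likelihood fit to all libraries, 5 contrasts), where the paper used DESeq2. P-values were adjusted over all 14274 genes. Correlations used log2 CPM with a prior count of 2. DESeq2 1.42.0 and limma-voom (limma 3.58.1) were alternatives. Others were RLE factors, total counts, no filter, at least 10 counts in every library, only the libraries compared, a replicate block, no fold threshold, copies added to parents, and each library left out. After the data were seen, DESeq2 without DMSO 48 h replicate 2 was added, as were edgeR without that library, DESeq2 and limma-voom with no fold threshold. The tests were checked on simulated counts. No pair of replicates agreed within sampling noise. Python 3.11.15 and matplotlib 3.10.9 made the figures.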

Additional observations from a re-analysis of the deposited data

Results flagged for a closer look

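BLVRB, biliverdin reductase B, is singled out because its libraries moved to opposite sides of DMSO at the 2 times. At 24 h it measured 53.3, 66.3 and 58.5 CPM with DMSO and 50.9, 50.7 and 53.1 CPM with Molidustat, all below (log2 fold change -0.20, SE 0.39). At 48 h it measured 48.3, 13.8 and 57.5 CPM with DMSO and 67.4, 116 and 86.6 CPM with Molidustat, all above (log2 fold change 1.12, SE 0.40). By edgeR's interaction test the difference had an unadjusted p of 0.0311 and an adjusted p of 0.728, beside 6.78% of all genes at an unadjusted p under 0.05. The gene was picked for this pattern, so the test is no independent support. How many of all genes show the pattern was not counted. Without DMSO 48 h replicate 2 the log2 fold change at 48 h was 0.75 (SE 0.29, adjusted p = 0.602). No test for outlying libraries was run on single values, since every group had 3.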

How the results depend on the processing

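The count of the 10 genes called moved with the setting. At 24 h it was 0, but 1 with no filter on low counts (CP), 1 with limma-voom with or without the fold threshold (TF), and 2 (TF and CP) without DMSO 48 h replicate 2, whether by edgeR, by edgeR with no fold threshold or by DESeq2. At 48 h it was 0, but 1 (TF) with DESeq2 with or without the fold threshold and with no filter, 2 (TF and CP) with limma-voom with or without it, 1 (TF) without DMSO 48 h replicate 2 by edgeR with or without it, and 2 (TF and CP) by DESeq2. Over the 12 fits that leave out 1 library, the count ran from 0 to 2 at 24 h and 0 to 1 at 48 h, above 0 only without DMSO 48 h replicate 2. The interaction and both time comparisons gave 0 in every alternative run. The cause of the other moves was not tested.

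TF kept a log2 fold change of 1.17 to 1.34 at 24 h and 1.11 to 1.78 at 48 h over 22 alternatives each, with adjusted p from 1.49e-09 to 1 and from 3.53e-06 to 0.515. For TFRC the ranges were 0.58 to 1.01 and 0.68 to 0.91, and for CP, over 21 alternatives each, 2.48 to 3.75 and 0.47 to 3.05. Total counts in place of TMM moved the median of all genes at 48 h to 0.13. Direction changed in 24 of the single values. At 24 h, leaving out 1 library gave ranges of -0.027 to 0.50 for FTL, -0.023 to 0.26 for FTH1, -1.06 to 0.15 for TFR2, -0.36 to 0.48 for HAMP, -0.22 to 0.13 for SLC40A1, -0.16 to 0.56 for SLC11A2 and -0.39 to 0.23 for IREB2. At 48 h they were -0.045 to 0.25 for FTL, -0.0040 to 0.43 for SLC11A2 and -0.085 to 0.16 for IREB2, and, with no change of sign, 0.26 to 1.01 for FTH1, 0.36 to 1.18 for SLC40A1, 1.46 to 2.39 for TFR2 and 0.75 to 2.44 for HAMP. Other changes of sign were TFR2 at 24 h with limma-voom (0.88), SLC40A1 with at least 10 counts in every library (0.0021), FTL at 48 h by DESeq2 without DMSO 48 h replicate 2 (-0.0011), and IREB2 at 24 h with total counts (-0.013) and limma-voom (-0.13).

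With the replicate number as a block, IREB2 at 24 h was -0.046 (replicate block), and no call of the 10 changed. The numbers name libraries only: of 18 same-numbered pairs, 3 correlated over 0.1 (range -0.09 to 0.14), and 5 of 12 libraries correlated best with their own number. Few counts limit TFR2, HAMP and CP.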
